A study of Mus musculus with 6 samples.

Results

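The respiratory chain of the inner mitochondrial membrane was followed here as the set of protein-coding genes whose symbols name a subunit of complexes I to V. The symbols searched were those that begin with Ndufa, Ndufb, Ndufab, Ndufc, Ndufs, Ndufv, Uqcr, Cox4 to Cox8 and Atp5, together with Sdha to Sdhd, Cyc1 and the mitochondrially encoded mt-Nd, mt-Co, mt-Cytb and mt-Atp genes. This rule found 100 of the 54532 genes in the table. Complex I had 45 (38 nuclear, 7 mitochondrially encoded), complex II 4, complex III 10 (9 and 1), complex IV 21 (18 and 3) and complex V 20 (18 and 2), so that 87 were nuclear and 13 mitochondrially encoded. Subunits listed under other symbols were not included, and a few genes entered by their name only, such as Ndufa4, which is now placed in complex IV, and Cox7a2l, a factor for the assembly of supercomplexes.

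The RNA came from the inguinal white fat of mice, which lies under the skin. The mice received a high-fat diet for 15 weeks, starting at 8 weeks of age. The 3 control samples came from mice with a floxed Cdo1 gene (Cdo1 flox/flox, called WT in the genotype field), and the 3 Cdo1AKO samples from mice in which Cdo1, the gene of cysteine dioxygenase 1, was deleted in adipose tissue. The Cre driver, the sex of the mice and any pooling are not given in the sources used here. Whole tissue was used, so all cell types of the depot contributed RNA.

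Complex I (NADH dehydrogenase) and complex II (succinate dehydrogenase) pass electrons to ubiquinone, complex III passes them on to cytochrome c, and complex IV (cytochrome c oxidase) passes them to oxygen. Complexes I, III and IV pump protons, and complex V (ATP synthase) uses the gradient to make ATP. Complex II is encoded in the nucleus alone, whereas the others combine nuclear and mitochondrial products. White adipocytes hold fewer mitochondria than brown or beige adipocytes, in which the chain also serves heat production.

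Libraries held 16275184 to 19205804 counts. Control 1 and Cdo1AKO 2 stood apart from the other 4 libraries: the median level of the lymph node and B cell markers was 0.06 and 0.32 CPM (counts per 1000000 counts of the library) in these, and 51.7 to 92.5 CPM elsewhere. Each such library belonged to a different group. Results were therefore also computed with a term for these transcripts, and in the 4 libraries that carried them (control 2 and 3, Cdo1AKO 1 and 3), the latter added after the data were seen. Values of the 3 libraries of a group are given in the order of their replicate numbers. Cdo1 itself had 885, 431 and 629.7 CPM in the controls and 123, 391 and 134 CPM in the Cdo1AKO libraries, so that Cdo1AKO 2 came close to control 2. The deleted exons are not given in the sources used here.

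Most respiratory chain genes had lower average counts in Cdo1AKO, but none passed the test across all genes, and Cdo1AKO 2 was about as high as the highest control. Of the 100 genes, 97 had enough counts to be tested, whereas Cox7b2, Cox8c and the second of the 2 rows named Atp5o had 0 counts in every library. The log2 fold change of Cdo1AKO over control was negative in 81 of the 97 (83.5%), against 44.0% of all 16623 genes tested, and its median was -0.24 against 0.06. With edgeR's quasi-likelihood test and adjustment over all genes, 0 of 97 passed 0.05, as did 0% of all genes, and the smallest adjusted p among the 97 was 0.435. At an unadjusted p under 0.05 there was 1 lower gene, mt-Co3, where the background over all genes was 5.71%, and 1 higher gene, Cox6a2, where it was 4.66%. DESeq2 called 0 of the 97 genes and 399 genes in all, and limma-voom called 0 genes. In the authors' deposited table, 0 of the 97 were among the 275 genes past an adjusted p of 0.05, which are 1.0% of the 27492 genes with a value there.

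In 83 of the 97 genes Cdo1AKO 1 and Cdo1AKO 3 were the lowest 2 of the 6 libraries. Control 1 and Cdo1AKO 2, the libraries without lymph node transcripts, were the highest 2 in 76 genes (71 of 84 nuclear and 5 of 13 mitochondrially encoded ones), and both statements held for 70. All 3 Cdo1AKO libraries lay below all 3 controls in 4 genes (mt-Nd3, Ndufa12, Ndufa6 and Cox6b2), a smaller share than the 9.73% of all genes with such a pattern. Only Cox6a2 lay above all controls, where the background was 8.87%.

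**Figure D1:**
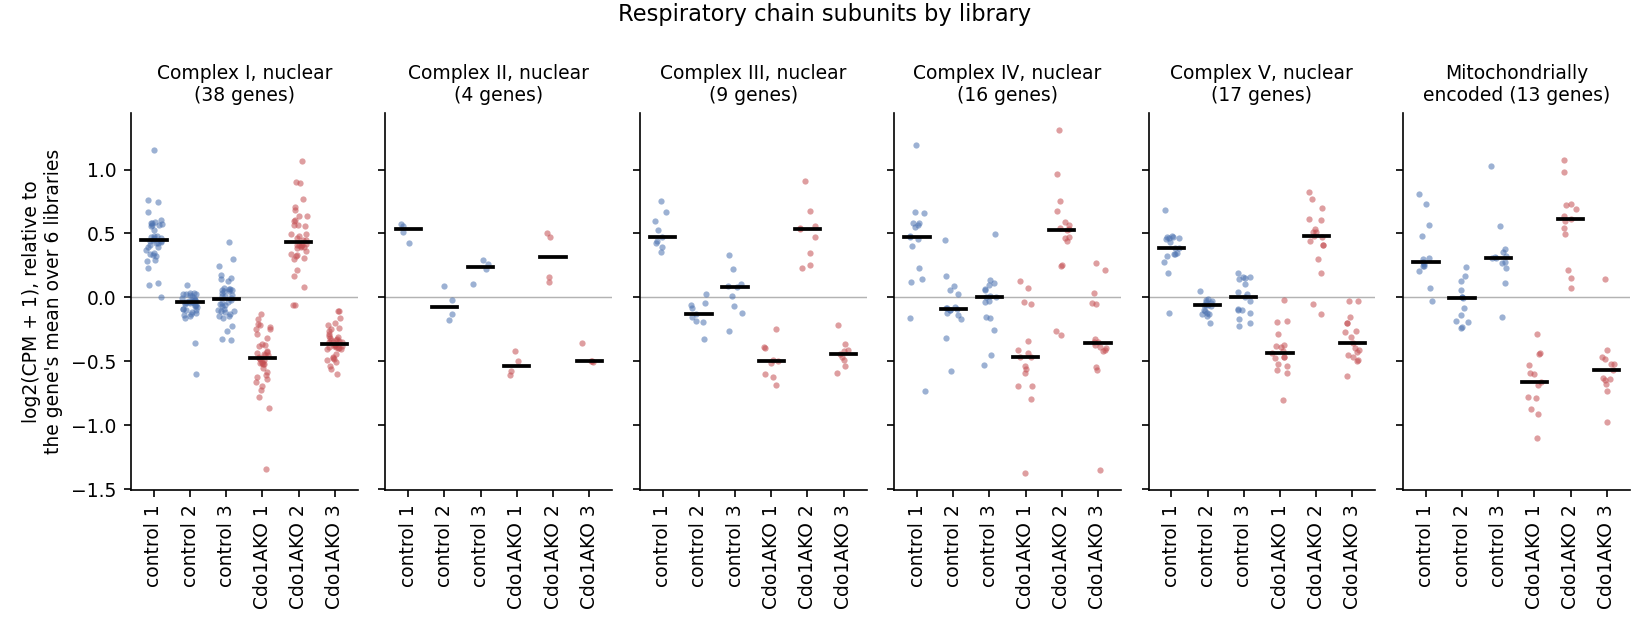
Each point is 1 tested subunit gene in 1 library, plotted as log2(CPM + 1) minus that gene's mean over the 6 libraries, with nuclear genes split by complex and mitochondrially encoded genes in the last panel; bars are medians. For nuclear complex I genes the medians are 0.45, -0.04 and -0.01 in the controls and -0.47, 0.43 and -0.36 in the Cdo1AKO libraries, and in the other nuclear panels too control 1 and Cdo1AKO 2 have the highest medians and Cdo1AKO 1 and 3 the lowest. For mitochondrially encoded genes control 3 (0.31) lies above control 1 (0.28), and Cdo1AKO 2 is highest (0.61).

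The 4 libraries with lymph node transcripts gave a clearer separation. They leave out Cdo1AKO 2, the Cdo1AKO library with high levels of most of these genes. In 83 of the 97 genes Cdo1AKO 1 and 3 were already the lowest 2 libraries, so their separation here was fixed by this choice. The calls given here and in later paragraphs add no separate support for a decrease and describe only these 4 libraries. There the log2 fold change was negative in 90 of 97 genes and its median was -0.44. With edgeR's test, 45 of the 97 fell (adjusted p under 0.05) and 0 rose, where 7.70% of the 17049 genes tested fell and 7.65% rose. This fit rests on 2 libraries per group. The remaining pair did not show the pattern: the ratio of Cdo1AKO 2 to control 1, which has no replicate check, was below 1 in 47 genes and above it in 50, with a median log2 ratio of 0.00. Between these separate sets of libraries, 46 genes were negative in both, 44 were negative in the 4 libraries and positive in the pair, 1 was the reverse, and 6 were positive in both. Across the 97 genes, which are not independent replicates, Pearson's r between the 2 comparisons was 0.52 and Spearman's rho 0.25, and the points far from the rest (Cox6a2, Cox8b) weigh on the former.

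**Figure D2:**
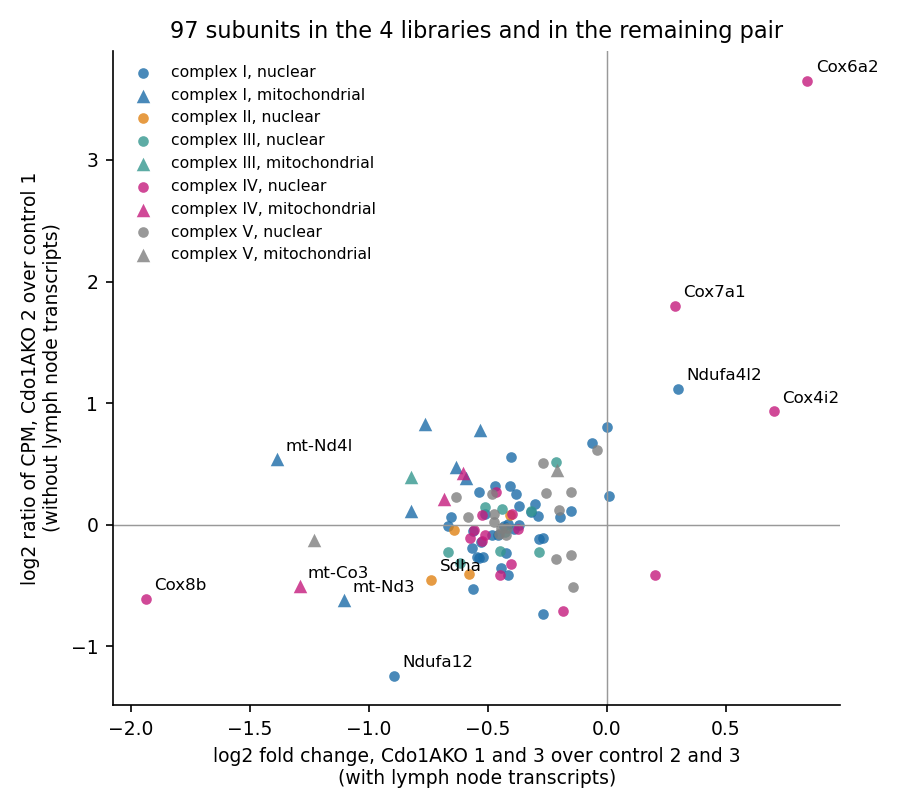
Each point is 1 of the 97 tested genes. The x axis is the log2 fold change of Cdo1AKO 1 and 3 over control 2 and 3 and the y axis the log2 ratio of CPM of Cdo1AKO 2 over control 1; colours mark the complex and triangles the mitochondrially encoded genes. Of the genes, 90 lie left of 0, while on the y axis 47 lie below 0 and 50 above.

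With the lymph node term in the fit of all 6 libraries, 86 of 97 genes were negative, the median was -0.28, and 1 gene, Cox8b, fell (adjusted p = 0.0373, edgeR) while 0 rose. In that fit 1.87% of all genes fell and 2.26% rose. Without Cdo1AKO 2, 92 of the 97 genes were negative with a median of -0.61, and 68 were lower at an unadjusted p under 0.05, where the background was 15.5% of 17255 genes, but 0 passed the adjusted threshold.

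The summed markers of adipocytes moved with these genes, but single markers differed. Of 16 adipocyte markers 15 had a negative log2 fold change, with a median of -0.48, and 6 lay below the controls without overlap (9.73% of all genes). These 6 were Adrb3, Acvr1c, Cfd, Slc2a4, Pnpla2 and Plin4. Being picked for this, they allow no contrast with the subunits in Cdo1AKO 2. Plin4 had 5969 CPM in Cdo1AKO 2, beside 6428 CPM in control 2 and 4250 and 4300 CPM in Cdo1AKO 1 and 3. The summed level of all 16 ran from 59213 to 91844 CPM in controls and was 36882, 79834 and 38766 CPM in the Cdo1AKO libraries. In this sum Cdo1AKO 2 lay within the control range. Nuclear subunit genes together had 16811, 11524 and 12759.8 CPM in the controls and 8623, 16516 and 9079.6 CPM in the Cdo1AKO libraries. Divided by the adipocyte sum, this gave 0.183, 0.195 and 0.175 in the controls and 0.234, 0.207 and 0.234 in the Cdo1AKO libraries, so the ratio was higher in each Cdo1AKO library. Fabp4, Car3 and Lpl made up 46.9% to 61.6% of the adipocyte sum. The other 13 markers summed to 48362, 30641 and 38617 CPM in the controls and 19551, 30658 and 19133 CPM in the Cdo1AKO libraries. There Cdo1AKO 2 only met the lowest control. With these 13 markers the ratio was 0.348, 0.376 and 0.330 in the controls and 0.441, 0.539 and 0.475 in the Cdo1AKO libraries. Both sums include Cfd, which had 13920, 6487 and 8891 CPM in the controls and 2598, 1283 and 2661 CPM in the Cdo1AKO libraries. Ratios without Cfd were not computed, so the higher ratio describes these marker sums only. In bulk tissue, fewer adipocytes and less of these transcripts per adipocyte cannot be told apart.

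The median of each of the 5 complexes was negative. Median log2 fold changes were -0.23 for complex I (38 of 45 negative), -0.43 for complex II (4 of 4), -0.25 for complex III (9 of 10), -0.30 for complex IV (15 of 19) and -0.22 for complex V (15 of 19). The spread between replicates (pooled SD of each library's median, 0.41 to 0.47 on the log2 scale) was as large as or larger than each median except that of complex II, whose median of -0.43 stood beside an SD of 0.41. In the 4 libraries the medians were -0.44, -0.61, -0.44, -0.46 and -0.42 in the same order, and 23 of 45, 3 of 4, 5 of 10, 7 of 19 and 7 of 19 genes fell. Of all genes tested in that fit, 7.70% fell. Differences between complexes were not tested.

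Complex II was the 1 complex of 5 whose share of the nuclear subunit transcripts separated the groups. No background was computed for such shares. In the CPM of single genes, which is another measure, 9.73% of all genes lay below the controls without overlap. The 5 shares depend on each other and were not tested, and most of the complex II sum came from Sdha. Complex II made up 7.60%, 7.63% and 8.17% of the summed CPM of nuclear subunit genes in the controls and 6.97%, 6.30% and 6.91% in the Cdo1AKO libraries. The shares of complex I (25.1% to 26.5%), complex III (10.4% to 11.3%), complex IV (19.8% to 21.5%) and complex V (33.7% to 36.6%) overlapped between groups.

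Sdha, the flavoprotein subunit that oxidises succinate, was the highest complex II gene per kilobase (122 CPM per kilobase on average). It had 722, 516 and 592 CPM in the controls and 326, 528 and 342 CPM in the Cdo1AKO libraries. Cdo1AKO 2 lay between control 2 and control 3, and the log2 fold change of -0.61 ± 0.26 (SE, 3 libraries per group) had an edgeR adjusted p of 0.493. In the 4 libraries Sdha fell by 0.74 ± 0.12 on the log2 scale (SE, edgeR adjusted p = 0.0114). Sdhb, the iron-sulphur subunit, had 201, 134 and 159 CPM in the controls and 101, 152 and 95.7 CPM in the Cdo1AKO libraries, again with only Cdo1AKO 2 inside the control range. Sdhd, 1 of the 2 membrane anchors, had 178, 113 and 148 CPM against 80.9, 172 and 87.2 CPM. Sdhb and Sdhd fell in the 4 libraries (edgeR adjusted p = 0.0231 and 0.0299), while Sdhc, the other anchor, had a log2 fold change of -0.41 there with an adjusted p of 0.0785. Sdha and Sdhb were among the 47 genes that were also lower in Cdo1AKO 2 than in control 1, with log2 ratios of -0.45 and -0.40.

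Promoters of nuclear subunit genes were read for the sites of factors known to act on them, since these genes varied together. RefSeq promoter windows (GRCm38.p6, 250 bases before to 50 after the start, both strands) were at hand for 67 of the 87 nuclear genes and for 27025 genes in all, and a gene was counted once if any of its windows held the motif. The NRF1 motif was found in 17 of the 67 (25.4%, against 5.19% of all genes), the ETS motif CCGGAAG, bound by GABPA, in 16 (23.9%, against 9.93%), the YY1 motif AAGATGGC in 9 (13.4%, against 3.19%), the ERRA motif TCAAGGTCA in 2 (2.99%, against 0.47%), and the SP1 motif GGGCGG in 27 (40.3%, against 38.2%). Each motif was counted on its own, overlaps between motifs were not removed, and base composition was not matched. The genes with the NRF1 motif had a median log2 fold change of -0.18 and those without it -0.25, and in the 4 libraries the medians were -0.38 and -0.43. A match describes letters and not binding.

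The 120 bases before the start are shown for 4 members of complexes II, III and IV that fell in the 4 libraries, with the motifs searched in capitals:
Sdha, chr13:74350241-74350360 (- strand): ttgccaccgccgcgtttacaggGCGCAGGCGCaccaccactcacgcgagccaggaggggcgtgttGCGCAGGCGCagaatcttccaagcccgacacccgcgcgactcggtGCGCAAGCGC
Sdhd, chr9:50603850-50603969 (- strand): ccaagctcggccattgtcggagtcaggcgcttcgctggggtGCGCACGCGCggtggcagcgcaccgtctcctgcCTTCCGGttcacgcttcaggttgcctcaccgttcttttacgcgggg
Uqcrfs1, chr13:30545317-30545436 (- strand): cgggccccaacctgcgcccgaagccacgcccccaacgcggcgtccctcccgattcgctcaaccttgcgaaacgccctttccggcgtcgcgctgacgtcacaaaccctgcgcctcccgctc
Cox8b, chr7:140900447-140900566 (- strand): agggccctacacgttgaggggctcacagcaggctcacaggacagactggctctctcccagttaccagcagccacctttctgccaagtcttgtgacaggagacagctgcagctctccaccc
The Sdha stretch holds the NRF1 motif 3 times, that of Sdhd holds it once beside an ETS motif, and those of Uqcrfs1 and Cox8b hold none of the 5 motifs.

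Complex I genes were spread around a small decrease. Ndufa12, an accessory subunit, had the smallest p of the nuclear ones: it had 74.0, 32.0 and 44.4 CPM in the controls and 12.2, 31.3 and 29.2 CPM in the Cdo1AKO libraries. Its groups did not overlap, but control 2 and Cdo1AKO 2 nearly met, and its log2 fold change of -1.05 ± 0.45 (SE) had an edgeR adjusted p of 0.498. Ndufa6, another accessory subunit, had 148, 90.6 and 91.3 CPM in controls and 79.3, 88.8 and 72.2 CPM in Cdo1AKO, also without overlap (-0.46 ± 0.23, SE). Ndufs7, a core subunit with an iron-sulphur cluster, had 158, 97.1 and 127 CPM against 84.5, 109 and 67.7 CPM, with Cdo1AKO 2 above control 2 (-0.55 ± 0.25, SE). None of these 3 passed in the 4 libraries, where their edgeR adjusted p-values were 0.138, 0.123 and 0.0611, in that order. The nuclear complex I genes that fell in the 4 libraries numbered 18 of 38 (7.70% of all genes) and included the core subunits Ndufs1, Ndufs3 and Ndufv2. Ndufs1 had the smallest adjusted p of them (log2 fold change -0.67 ± 0.11, SE, adjusted p = 0.0127), and the log2 ratio of Cdo1AKO 2 to control 1 was -0.01.

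Complex III genes were lower in Cdo1AKO 1 and 3 than in the other libraries. Uqcrc2, a core protein, had 192, 134 and 174 CPM in the controls and 91.2, 165 and 104 CPM in the Cdo1AKO libraries. The Rieske iron-sulphur protein Uqcrfs1 had 276, 159 and 203 CPM in controls and 121, 222 and 115 CPM in Cdo1AKO, and Uqcrh, the hinge protein, had 191, 134 and 141 CPM against 106, 164 and 120.5 CPM. All 3 overlapped between groups through Cdo1AKO 2. In the 4 libraries Uqcrc2 and Uqcrfs1 fell by 0.67 ± 0.15 and 0.62 ± 0.14 on the log2 scale (SE, edgeR adjusted p = 0.0284 and 0.0290), and Uqcrh had an adjusted p of 0.128.

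Nuclear complex V genes ranged from -0.29 to 0.21 in log2 fold change. Atp5b, the catalytic beta subunit, was the highest of its nuclear genes per kilobase (373 CPM per kilobase on average), with 2075, 1455 and 1683 CPM in the controls and 1019, 2165 and 1081 CPM in the Cdo1AKO libraries. It was highest in Cdo1AKO 2 and fell only in the 4 libraries (-0.58 ± 0.13, SE, edgeR adjusted p = 0.0299). The 3 nuclear genes with the smallest p all overlapped between groups. Atp5s, a coupling factor B-like gene at low level, had 12.0, 9.67 and 9.10 CPM against 9.13, 8.41 and 7.95 CPM. Atp5g2, 1 of 3 genes for the c subunit of the rotor, had 119, 99.0 and 115 CPM against 91.0, 100.3 and 102 CPM. Atp5d, the delta subunit, had 280.4, 197 and 245 CPM against 175, 264 and 155 CPM. Of the c subunit genes, Atp5g3 fell in the 4 libraries (log2 fold change -0.63, edgeR adjusted p = 0.0222), whereas Atp5g1 and Atp5g2 had values of -0.04 and -0.15 there with adjusted p-values of 0.850 and 0.446. No test compared these 3 genes with each other.

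Complex IV held the lowest and the highest log2 fold change of the 97 genes, those of Cox8b and Cox6a2, and both are alternative isoforms. Cytochrome c oxidase has subunits that come in a common form and in a form known from heart, skeletal muscle, brown fat, lung or testis. Cox8b (ENSMUSG00000025488, mm10 chromosome 7, 140898945 to 140900446, minus strand), the subunit VIII form known from heart, muscle and brown fat, had 66.5, 39.3 and 40.8 CPM in the controls and 10.4, 43.6 and 10.6 CPM in the Cdo1AKO libraries. Cdo1AKO 1 and 3 were far below every control, and Cdo1AKO 2 lay within the control range. The log2 fold change was -1.18 ± 0.62 (SE, edgeR adjusted p = 0.568) over the 6 libraries, -1.48 ± 0.27 with the lymph node term (adjusted p = 0.0373) and -1.94 ± 0.12 in the 4 libraries (adjusted p = 0.00207). Its common counterpart Cox8a had 656, 414 and 482 CPM against 270.5, 608 and 333 CPM, a log2 fold change of -0.36 ± 0.36 (SE), and Cox8c had 0 counts throughout.

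Markers of brown and beige fat bear on Cox8b, which is often counted among them. Ucp1, the uncoupling protein of brown fat, had under 1 CPM in all 6 libraries (0.200 to 0.908) and Zic1, a gene of classical brown fat, had 0 counts. Cidea had 49.4, 23.4 and 32.4 CPM in controls and 10.6, 18.9 and 10.7 CPM in Cdo1AKO, and Prdm16 had 35.4, 36.3 and 33.7 against 19.8, 27.0 and 15.8 CPM. Neither overlapped between groups, in contrast to Cox8b, and their edgeR adjusted p-values were 0.345 and 0.369. In the authors' deposited table Cidea had an adjusted p of 0.0396 and Prdm16 of 0.172. Of the 10 genes on the list 7 were tested and 5 were negative, Cox8b itself among them. Below the controls without overlap lay 3 (these 2 and Ppargc1a), as did 9.73% of all genes. Others on the list were high in Cdo1AKO 2: Otop1 had 8.39, 11.7 and 11.2 CPM against 4.99, 49.4 and 4.11 CPM (log2 fold change 0.90 ± 0.96, SE), and Kcnk3 had 102, 60.5 and 78.1 CPM against 44.8, 97.1 and 38.03 CPM (-0.42 ± 0.40, SE). Dio2 was under 2 CPM in each library, with a log2 fold change of 0.24 ± 1.18 (SE).

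Cox6a2, Cox7a1, Cox4i2 and Ndufa4l2 ran in the other direction, though none passed the test. Cox6a2 (mm10 chromosome 7, 128205435 to 128206387, minus strand), the subunit VIa form of heart and skeletal muscle, had 0.184, 0.748 and 0.642 CPM in the controls and 1.15, 2.31 and 1.37 CPM in the Cdo1AKO libraries, with every Cdo1AKO library above every control (log2 fold change 1.59 ± 0.58, SE, edgeR adjusted p = 0.435). These rest on 3, 14 and 12 counts against 23, 36 and 25, so the precision was low. Cox7a1, the muscle form of subunit VIIa, had 2.45, 2.08 and 1.82 CPM against 2.05, 8.54 and 2.74 CPM, and its log2 fold change of 1.06 ± 0.58 (SE) was 0.18 without Cdo1AKO 2. Cox4i2, the subunit IV form known from lung and vascular cells, had 5.21, 2.78 and 2.89 CPM against 4.49, 9.96 and 4.77 CPM (0.82 ± 0.44, SE, and 0.36 without Cdo1AKO 2). Ndufa4l2, a paralogue of Ndufa4 also known from pericytes, had 13.5, 8.55 and 11.4 CPM against 12.2, 29.4 and 12.4 CPM (0.69 ± 0.40, SE, and 0.15 without Cdo1AKO 2). Ndufa11, an accessory subunit of complex I, completed the 5 positive genes with the smallest p, with 39.6, 28.3 and 32.5 CPM against 32.4, 69.0 and 28.7 CPM, and only Cdo1AKO 2 was high (log2 fold change 0.37 ± 0.36, SE, and -0.13 without it).

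Markers of other cell types were summed in the same way. The 20 skeletal muscle markers summed to 150 to 224 CPM in controls and 232 to 316 CPM in Cdo1AKO, 10 of 11 tested were positive, and Acta1 alone gave 27.2% to 59.8% of the sum. Acta1 overlapped between groups, while 5 of the 11 lay above the controls without overlap (8.87% of all genes). Of these, Casq1 had 1.16, 0.908 and 2.62 CPM against 5.24, 8.09 and 6.25 CPM. Its edgeR adjusted p was 0.334, and 0.04997 with the lymph node term, where 2.26% of all genes rose. Myh4 was at 0 in all libraries and Ckm in all but Cdo1AKO 2. The 11 pericyte and smooth muscle markers summed to 698 to 899 CPM in controls and 1035 to 1680.1 CPM in Cdo1AKO, with 8 of 11 positive and 51.1% to 72.8% of the sum from Acta2 and Rgs5. Without Acta2, a smooth muscle actin also made by other contractile cells, the sum was 731, 498 and 613 CPM in controls and 531, 1199 and 507 CPM in Cdo1AKO, so that only Cdo1AKO 2 lay above the controls, and the list's median log2 fold change in the 4 libraries was 0.0085. Rgs5, a pericyte gene, had 291, 174 and 231 CPM in controls and 220, 555 and 225 CPM in Cdo1AKO, with the same single high library as Cox4i2 and Ndufa4l2. The 8 endothelial markers overlapped between groups, with sums of 1096, 870.04 and 1027 CPM in controls and 878, 1791 and 839 CPM in Cdo1AKO and a median of -0.086 in the 4 libraries. The 12 macrophage markers summed to 694 to 844 CPM in controls and 926 to 986 CPM in Cdo1AKO, with 10 of 12 positive and 4 above without overlap (8.87% of all genes). Cd14 lay below without overlap (9.73% of all genes), with 37.8, 18.1 and 30.1 CPM against 12.6, 13.8 and 10.2 CPM. It fell with the lymph node term (edgeR adjusted p = 0.0398), as did 1.87% of all genes. The authors' deposited table gives it an adjusted p of 0.0359. The part of these cells in the levels of the subunits and isoforms was not tested.

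The common forms were lower in Cdo1AKO 1 and 3. Setting aside Cox7a2l, which exceeded Cox7a2 in most libraries, they exceeded their alternatives in every library. Cox4i1 had 766, 488 and 539.6 CPM in controls and 387, 613 and 393 CPM in Cdo1AKO, Cox6a1 had 578, 368 and 422 against 286, 545 and 270.2 CPM, and Cox6b1 had 227, 161 and 172 against 114, 275 and 129 CPM. Cox6a1 and Cox6b1 fell in the 4 libraries (edgeR adjusted p = 0.0322 and 0.0365) and Cox4i1 had an adjusted p of 0.0560. Cox7a2 had 152, 99.2 and 109.5 CPM against 74.8, 162 and 84.3 CPM, Cox7b had 124, 92.5 and 79.8 against 64.0, 121 and 69.4 CPM, and Ndufa4 had 255, 171 and 189.9 against 127, 254 and 141 CPM. Cox6b2, the testis form of subunit VIb, had 2.94, 2.78 and 2.30 CPM against 2.25, 1.8 and 2.25 CPM. Cox7a2l differed from most subunits in its Cdo1AKO libraries, with 174, 147 and 161 CPM in controls and 169, 131 and 187 CPM in Cdo1AKO. Cdo1AKO 2 was its lowest library and Cdo1AKO 3 its highest, while control 1 was its highest control.

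**Figure D3:**
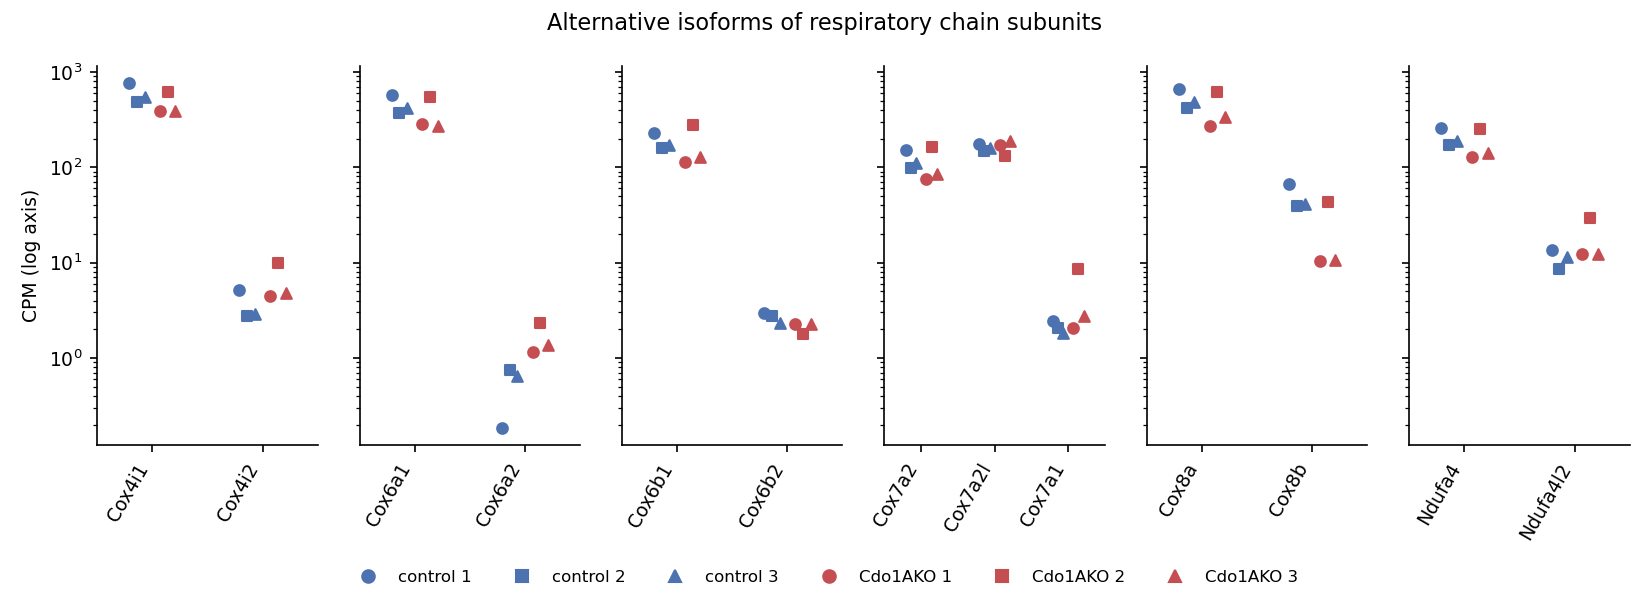
Each point is the CPM of 1 isoform gene in 1 library on a log axis, with controls in blue and Cdo1AKO in red and the marker shape giving the replicate. Cox8b drops to 10.4 and 10.6 CPM in Cdo1AKO 1 and 3, while Cox4i2, Cox7a1 and Ndufa4l2 are highest in Cdo1AKO 2 (9.96, 8.54 and 29.4 CPM).

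The 13 mitochondrially encoded genes, transcribed from the circular genome inside the organelle, had a median log2 fold change of -0.27 (10 of 13 negative) beside -0.24 for the 84 tested nuclear genes (71 negative). Together they took 3.56%, 3.19% and 3.86% of all counts in the controls and 2.37%, 4.34% and 2.46% in the Cdo1AKO libraries. Their summed CPM was 2.32, 2.65 and 3.11 times that of the nuclear genes in controls and 2.46, 3.05 and 2.42 times in Cdo1AKO, so this ratio did not separate the groups. In the 4 libraries all 13 were negative with a median of -0.76, against -0.42 for the nuclear genes. There 7 of 13 and 38 of 84 fell, beside 7.70% of all genes. In the remaining pair, Cdo1AKO 2 was above control 1 in 10 of the 13, with a median log2 ratio of 0.39. Cdo1AKO 2 was the highest library in 9 of the 13, and Cdo1AKO 1 and 3 the lowest 2 in 12.

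The highest level per kilobase of any subunit was that of mt-Co1, the catalytic subunit of complex IV, with 16454, 12803 and 17350.5 CPM in the controls and 9392, 19065 and 9456 CPM in the Cdo1AKO libraries (9118 CPM per kilobase on average). The cytochrome b gene mt-Cytb, the highest of complex III, had 7106, 5752 and 7227 CPM against 3662, 9332 and 3704 CPM and fell in the 4 libraries by 0.82 ± 0.17 on the log2 scale (SE, edgeR adjusted p = 0.0207). In complex I the highest was mt-Nd1, with 3646, 2776 and 3414 CPM against 2099, 6251 and 2202 CPM. In these 3 genes Cdo1AKO 2 was the highest library and Cdo1AKO 1 and 3 the lowest 2. The other NADH dehydrogenase genes outside the copied stretch described next were mt-Nd2, with 2721, 2086 and 2684 against 1335, 4833 and 1482 CPM, mt-Nd5, with 2883, 2748 and 3404 against 2018, 3999.5 and 1967 CPM, and mt-Nd6, with 1379.6, 1007 and 1435 against 761, 1797 and 866 CPM. Of these, mt-Nd2 and mt-Nd5 fell in the 4 libraries (edgeR adjusted p = 0.0240 and 0.0354). The gene mt-Nd6 is the only one read from the other strand, and since the strand setting of the counting is not given, reads antisense to it cannot be told apart.

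Counts of 6 mitochondrial genes were far lower than those of their neighbours, and these 6 lie in a stretch with a near-identical copy in the nuclear genome. The table lists 7 unprocessed pseudogenes side by side on mm10 chromosome 1, between 24611535 and 24616197 on the minus strand. Alignment of the annotated transcripts showed that Gm28661 matches 681 of 681 aligned bases of mt-Co2, Gm10925 678 of 678 of mt-Atp6, Gm28437 783 of 783 of mt-Co3, Gm28438 342 of 342 of mt-Nd3, Gm10222 294 of 294 of mt-Nd4l, and Gm28439 876 of 876 at the start of mt-Nd4. Gm29216 matches 482 of 483 bases at the end of mt-Co1, with the substitution A1066T counted from the first base of mt-Co1. The first 60 aligned bases of 2 genes and their copies are shown. Reads from the mt-Co3 stretch fit both places equally well, while the mt-Co1 stretch has a single difference, in capitals:
mt-Co3, chrM:8607-8666 (+ strand): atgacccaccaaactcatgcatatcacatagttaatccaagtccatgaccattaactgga
Gm28437, chr1:24613912-24613971 (- strand): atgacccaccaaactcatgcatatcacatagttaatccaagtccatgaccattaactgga
mt-Co1, chrM:6390-6449 (+ strand): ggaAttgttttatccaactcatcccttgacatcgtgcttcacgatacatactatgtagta
Gm29216, chr1:24616129-24616188 (- strand): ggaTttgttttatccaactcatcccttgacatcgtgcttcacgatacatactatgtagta

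Genes within the copied stretch (mt-Co2, mt-Atp8, mt-Atp6, mt-Co3, mt-Nd3 and mt-Nd4l) had 1.71 to 114 CPM per kilobase over all libraries. The 5 genes outside it (mt-Nd1, mt-Nd2, mt-Nd5, mt-Nd6 and mt-Cytb) had 1079 to 8158, and the 2 that lie partly in it (mt-Co1 and mt-Nd4) had 1374 to 12339.7. The gene mt-Atp8 lies between the copies, with no pseudogene row of its own. The summed CPM within the stretch was 0.73% to 1.11% of that outside it, and the 7 pseudogenes held 72 to 164 CPM in sum, close to the 78.8 to 196 CPM of the 6 mitochondrial genes. The treatment of reads with several places was not given in the sources used here, and its part in these levels was not tested. The counts of these 6 genes are uncertain for that reason.

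Within that stretch, mt-Co3 was the mitochondrial gene with the smallest p, with 41.8, 23.4 and 57.9 CPM in the controls and 17.0, 29.5 and 16.4 CPM in the Cdo1AKO libraries (log2 fold change -0.97 ± 0.39, SE, edgeR adjusted p = 0.478). The gene mt-Nd3 had 29.7, 19.6 and 20.7 CPM against 7.19, 19.3 and 11.7 CPM, and was the only mitochondrial gene whose groups did not overlap (-0.88 ± 0.38, SE). For mt-Atp6 the values were 59.4, 38.7 and 46.2 CPM against 18.8, 54.5 and 17.5 CPM, and for mt-Co2 they were 57.9, 39.4 and 56.6 CPM against 34.2, 77.7 and 29.3 CPM. The lowest were mt-Nd4l, with 6.80, 5.88 and 8.73 against 2.5, 9.89 and 3.12 CPM, and mt-Atp8, with 0.613, 0.855 and 0.482 against 0.349, 0.835 and 0.822 CPM. The pseudogene Gm28437 followed mt-Co3, with 25.1, 20.6 and 24.8 CPM against 12.4, 21.5 and 11.4 CPM. The partly copied mt-Nd4 had 4557, 3273 and 3935 CPM against 1893, 4943 and 2198 CPM. The median log2 fold change was -0.57 for the 6 genes within the stretch and -0.16 for the 5 outside it. In the 4 libraries these medians were -1.17 and -0.63, so the genes with uncertain counts lowered the median of the mitochondrial set.

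**Figure D4:**
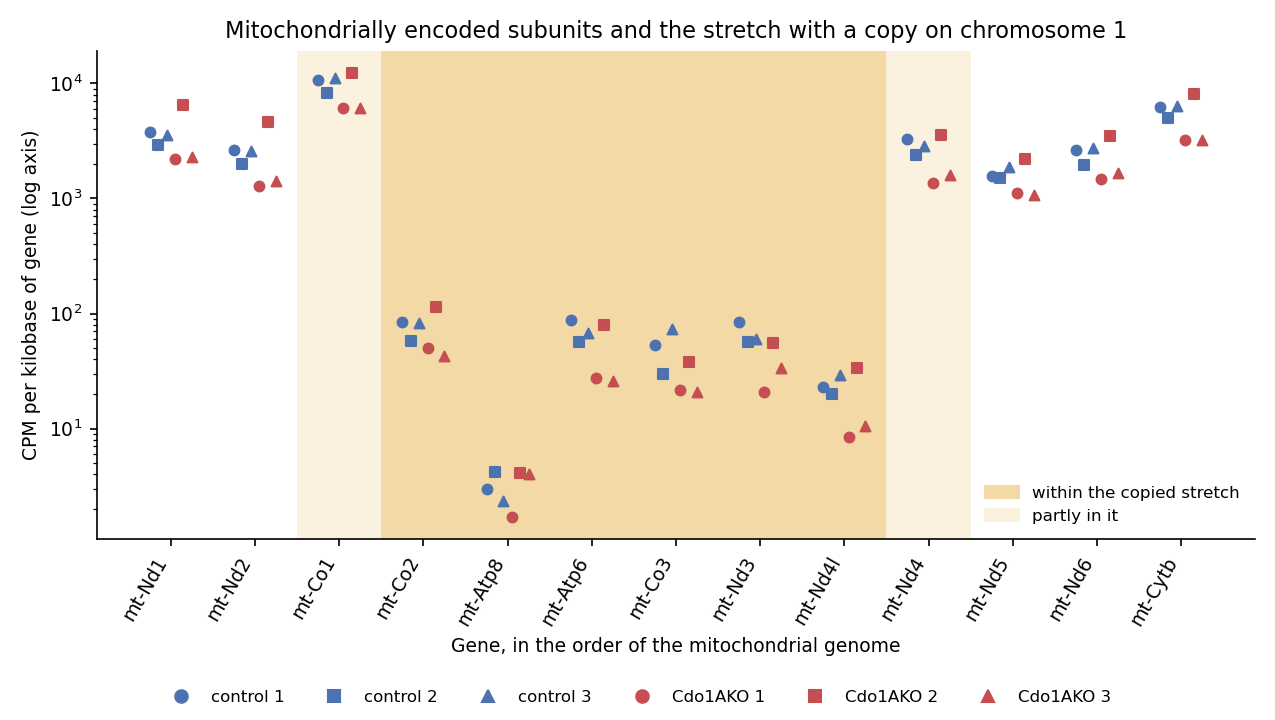
The CPM per kilobase of each mitochondrially encoded gene is plotted on a log axis in the order of the mitochondrial genome, with 1 point per library (blue control, red Cdo1AKO, marker shape for the replicate) and shading for the stretch with a copy on chromosome 1. The 6 shaded genes lie at 1.71 to 114 CPM per kilobase and the 5 unshaded ones at 1079 to 8158.

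Several genes that regulate the chain separated the groups. Of 12 tested regulators of nuclear-encoded mitochondrial genes, 0 passed the edgeR test over 6 libraries, 4 were lower without overlap between groups (9.73% of all genes), and 2 fell with the lymph node term (1.87% of all genes). Ppargc1a, the coactivator known to drive mitochondrial biogenesis, had 15.9, 13.5 and 17.1 CPM in controls and 5.59, 6.94 and 5.15 CPM in Cdo1AKO (log2 fold change -1.39 ± 0.21, SE, edgeR adjusted p = 0.230, and 0.0229 with the lymph node term). Ppara, a nuclear receptor for fatty acid oxidation genes, had 12.1, 12.6 and 14.9 CPM against 3.64, 3.28 and 5.32 CPM (-1.69 ± 0.25, adjusted p = 0.230 and 0.0222). Both were low in Cdo1AKO 2 too, unlike most subunits, though they were named for their small p, which favours such genes. The authors' deposited table gives adjusted p-values of 9.56e-05 for Ppargc1a and 3.3e-05 for Ppara. Ppargc1b, a relative of Ppargc1a, had 7.72, 8.60 and 7.66 CPM against 6.39, 3.28 and 4.49 CPM (-0.76 ± 0.29). The DNA-binding factors Nrf1, Gabpa, Esrra and Yy1, whose motifs were searched above, had log2 fold changes of -0.14 ± 0.23, -0.08 ± 0.14, 0.08 ± 0.13 and -0.05 ± 0.15 (SE), each overlapping between groups.

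Among 17 genes for replication and expression of mitochondrial DNA, 12 were negative, the median was -0.08, 5 were lower without overlap (9.73% of all genes), 1 (Mterf2) was higher without overlap (8.87%), and 1 fell with the lymph node term (1.87%). That gene was Mgme1, an exonuclease for mitochondrial DNA, with 31.3, 23.3 and 24.1 CPM in controls and 12.0, 13.9 and 13.2 CPM in Cdo1AKO (-1.01 ± 0.18, SE, edgeR adjusted p = 0.251, and 0.0254 with the term). The helicase Twnk had 28.3, 24.2 and 25.6 CPM against 18.5, 14.6 and 16.7 CPM, and the transcription factor Tfb2m had 47.5, 34.1 and 40.0 CPM against 27.0, 23.6 and 26.1 CPM. Tfam, the main packaging and transcription factor, and Polrmt, the RNA polymerase, had log2 fold changes of -0.02 ± 0.18 and 0.11 ± 0.14 (SE).

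Of 15 genes for electron carriers, 13 were negative with a median of -0.34, and 3 genes of ubiquinone synthesis were lower without overlap (9.73% of all genes). Coq8a, Coq5 and Coq4 had log2 fold changes of -0.60 ± 0.16, -0.64 ± 0.18 and -0.66 ± 0.21 (SE), and Coq5 fell with the lymph node term (edgeR adjusted p = 0.0452). Coq5 had 64.8, 45.0 and 56.2 CPM in controls and 33.3, 40.5 and 32.8 CPM in Cdo1AKO. Cycs, which encodes cytochrome c, followed the subunits instead, with 139.9, 93.3 and 95.7 CPM against 47.6, 192 and 56.3 CPM.

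No assembly factor passed the test. Of the tested genes, 13 of 15 for complex I, 1 of 4 for complex II, 5 of 6 for complex III, 12 of 20 for complex IV and 3 of 3 for complex V were negative, with medians of -0.19, 0.06, -0.38, -0.13 and -0.21, and 0 passed with or without the lymph node term. Of these 48 genes, 5 (10.4%) lay below the controls without overlap, close to the 9.73% of all genes. The largest decrease among them was that of Ttc19, needed for complex III, with 45.2, 30.6 and 34.3 CPM against 23.2, 28.6 and 24.4 CPM (-0.53 ± 0.19, SE). The others were Lyrm7 of complex III (-0.52 ± 0.25), Cox14 and Taco1 of complex IV (-0.49 ± 0.21 and -0.25 ± 0.16) and Atpaf1 of complex V (-0.21 ± 0.15), while Coa4 of complex IV was above (0.44 ± 0.23). The 13 genes of cristae, carriers and supercomplexes had a median of -0.10 with 11 negative and 0 separate groups, and the smallest p there belonged to Opa1, Phb2 and Chchd6 (-0.38 ± 0.16, -0.28 ± 0.15 and -0.60 ± 0.32, SE).

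**Figure D5:**
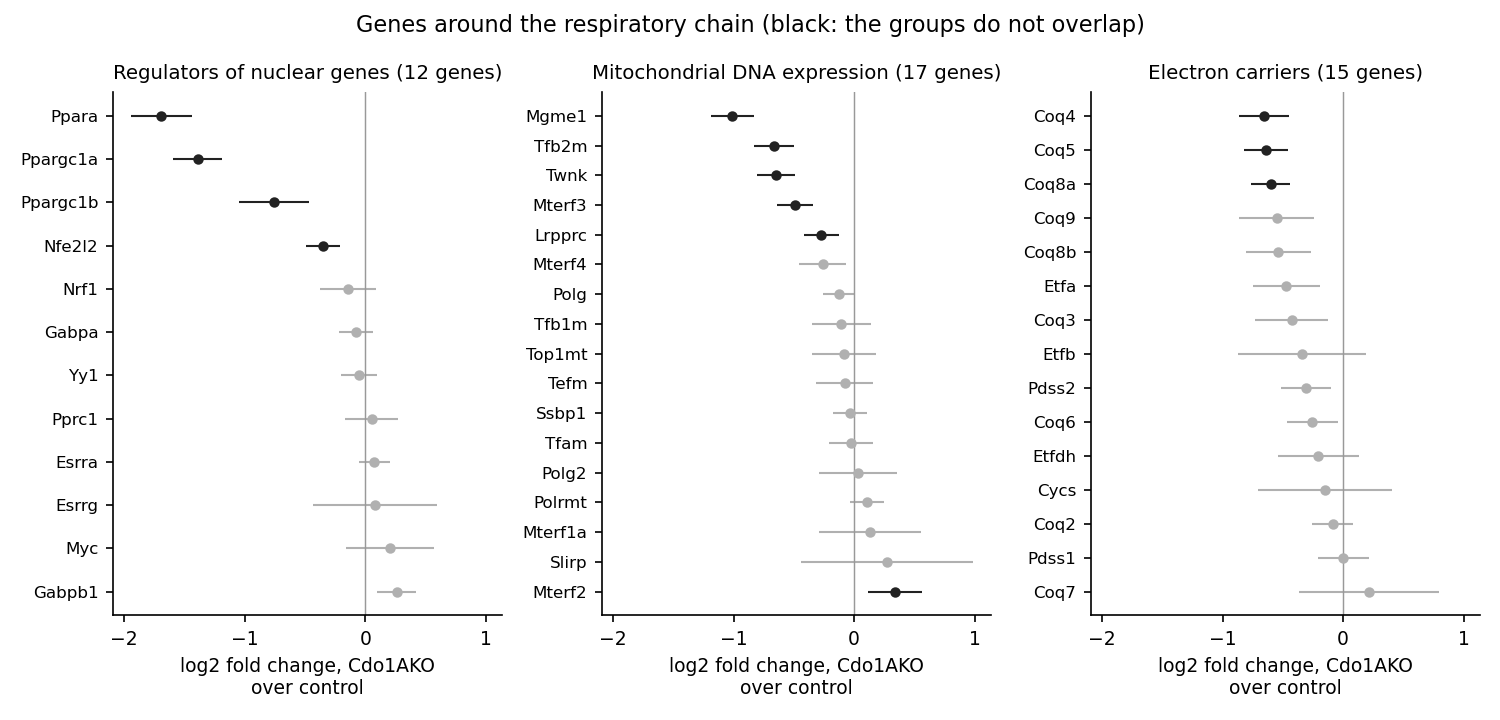
Each point is the log2 fold change of 1 gene (Cdo1AKO over control) with bars of 1 standard error (3 libraries per group), for regulators of nuclear genes, genes of mitochondrial DNA expression and electron carriers; black marks genes whose groups do not overlap. Ppara (-1.69) and Ppargc1a (-1.39) lie farthest left, while Nrf1 (-0.14), Gabpa (-0.08), Esrra (0.08), Yy1 (-0.05) and Tfam (-0.02) lie close to 0.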

How the data were processed

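Bulk RNA-seq of 6 samples was grouped by sample title. Per the labels' protocols, TRIzol was used for RNA isolation and a NEBNext Ultra kit for the libraries. Per the file headers, each sample has a column of raw counts and one of FPKM. The authors also deposited a comparison of their own, with a log2 fold change, a p-value and an adjusted p for each gene. The submitters' processing notes name mm10, DESeq2 1.20.0, featureCounts 1.5.0-p3 and HISAT2 2.0.5 but give no roles. The deposited FPKM values were not used for any result.

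Genes that passed filterByExpr (16623 of 54532) were scaled with TMM and tested with edgeR 4.0.16 (quasi-likelihood, group as the only term) in R 4.3.3, with Benjamini-Hochberg adjustment over all genes and a threshold of 0.05. CPM uses TMM-scaled library sizes and SE is that of the log2 fold change. The lymph node term marks libraries with a median marker level above 5 CPM. Alternatives were other scaling factors and filters, DESeq2 1.42.0, limma-voom (limma 3.58.1), a replicate block and each sample left out. The edgeR script was tested on simulated counts. Copies were aligned with Biopython 1.88 (local mode) on annotated mouse transcripts, counting those of at least 95% identity. Promoter sequences are those of RefSeq, GRCm38.p6.

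Members, gene lists and tests were chosen with earlier results of these data known. Values in every sample were given, by rule, for the 3 nuclear members with the smallest p and the highest member per kilobase of each complex, all mitochondrially encoded members, the isoform groups, the 5 positive members with the smallest p, any member past 0.05, and up to 3 genes of each pathway list. The labels do not state whether replicates are different mice, so each p-value reflects only the spread among these libraries, which may be technical. Counts limit the precision of low genes, and the strand setting was not given in the sources used here.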

Additional observations from a re-analysis of the deposited data

How the results depend on the processing

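In every setting tried, most members were negative (64 to 92 of 97 when single libraries were left out, 81 to 90 otherwise) and the median of each complex stayed below 0. Leaving out single libraries gave medians of -0.61 to -0.05 for complex I, -0.77 to -0.28 for complex II, -0.70 to -0.01 for complex III, -0.68 to -0.08 for complex IV, -0.54 to -0.06 for complex V, -0.60 to -0.07 for nuclear genes and -0.83 to -0.037 for mitochondrially encoded genes; the lowest values came without Cdo1AKO 2. The number of genes called was 0 by edgeR over 6 libraries (950 lower and 774 higher at an unadjusted p under 0.05), 399 with DESeq2 (140 higher, 259 lower), 686 with the lymph node term (375 higher, 311 lower) and 2617 in the 4 libraries with lymph node transcripts, and it was 0 whichever single library was left out; the members called were 0, 0, 1 and 45 in that order. Depth limits mainly the low members, such as Cox6a2.

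Signs of members near 0 depended on the setting. The log2 fold change of mt-Nd1 was -0.069 with limma-voom, -0.11 with the replicate block, -0.10 with the lymph node term, -0.53 in the 4 libraries and -0.61 to 0.37 when single libraries were left out, against 0.10 as reported. For mt-Nd2 these values were -0.20, -0.25, -0.24, -0.76 and -0.83 to 0.34. For mt-Atp8 they were -0.051 (limma-voom), -0.0089 (block), -0.21 (4 libraries) and -0.16 to 0.35, and for Cox7a2l -0.0083 (limma-voom), -0.00065 (block) and -0.10 to 0.15. Leaving out single libraries gave ranges across 0 for mt-Nd5 (-0.60 to 0.00072), mt-Nd6 (-0.65 to 0.065), mt-Co2 (-0.69 to 0.13), Cox6b1 (-0.62 to 0.11), Cox7a2 (-0.60 to 0.036) and Ndufa11 (-0.13 to 0.60). The cause of these changes was not tested.

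With the replicate number as a block, 0 genes and 0 members were called and the members' median was -0.29. Deviations from the group means correlated at -0.66, -0.66 and 0.42 between same-numbered samples. The largest correlation, 0.69, was between control 1 and Cdo1AKO 2, the libraries without lymph node transcripts. With that split in the data, these correlations cannot settle whether same-numbered samples were paired.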

Other observations

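The 2 ribosomal RNAs of the mitochondrial genome, which are no subunits, lay below the controls without overlap, although most mitochondrial messenger RNAs did not. This pattern was found in 9.73% of all genes, and neither ribosomal RNA passed the test. The small ribosomal RNA mt-Rnr1 (chromosome MT, 70 to 1024) had 710.4, 519 and 519.7 CPM in the controls and 318, 425 and 389 CPM in the Cdo1AKO libraries. The large one, mt-Rnr2 (chromosome MT, 1094 to 2675), had 788, 565 and 599.5 CPM against 338, 496 and 402 CPM. Their log2 fold changes were -0.63 ± 0.22 and -0.66 ± 0.23 (SE, 3 libraries per group, edgeR adjusted p = 0.418 and 0.428), while the fit with the lymph node term gave -0.62 and -0.66 (adjusted p = 0.0848 and 0.0702). In both, Cdo1AKO 2 was the highest Cdo1AKO library but lay below every control, unlike in mt-Nd1 and mt-Nd2, which follow them in the genome and were highest in Cdo1AKO 2. The selection of messenger RNA was not given in the sources used here, and the difference between ribosomal and messenger RNA was not tested.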
